A study of Arabidopsis thaliana with 27 samples.

Results

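Wild-type Arabidopsis hypocotyls that received the high UV-B dose were compared with hypocotyls kept in the dark. The comparison used the 6 libraries labelled WT (Columbia-0) at 30000 µmol m-2 UV-B or as dark control, 3 in each group, of 27 libraries in the series. All 19794 genes with enough counts to test were examined, of 32832 listed loci. Every seedling, the dark controls included, germinated in absolute darkness on filter paper with 0.5x MS medium and 100 µM of the gibberellin GA4. After 2.5 days the treated seedlings were exposed to UV-B for about 45 min and returned to the dark. The extraction protocol places the excision of the hypocotyls 6 h after exposure, while the series title speaks of 2 days. Libraries were TruSeq stranded libraries from total RNA, and the labels call them mRNA. The 3 WT libraries exposed to 3000 µmol m-2 for about 5 min are given beside the others where they help, as are the same 2 groups of xpf-3, which carries a mutated UVH1, the gene of an excision repair nuclease, and of uvr8-6, in which the photoreceptor gene UVR8 is mutated.

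UV-B is absorbed by DNA, where it links neighbouring pyrimidines, and by tryptophans of the photoreceptor UVR8, which then acts through the ubiquitin ligase COP1 and the transcription factor HY5. Plants repair the DNA lesions with photolyases, which need light, or by nucleotide excision repair, which does not, and the transcription factor SOG1 turns on genes of repair and cell cycle arrest when damage persists. Strong UV-B also produces reactive oxygen and starts immune-like signalling. A hypocotyl in the dark is a stem that grows almost entirely by elongating cells that already exist, under the control of brassinosteroid, gibberellin and auxin and through loosening of the cell wall.

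Total counts ran from 8492262 to 11984665 in the dark libraries and from 6163441 to 8508841 in the high-dose libraries. Levels are CPM, counts scaled to a common library size, log2 fold changes are high dose minus dark with the standard error (SE) of the fit after ±, and a gene passes when its adjusted p in edgeR's quasi-likelihood test is below 0.05. The labels do not say that libraries of a group came from separate cultures, so a p measures the spread between libraries. WT dark replicate 1 stood apart from the other dark libraries, with a chi-square per degree of freedom of 24.1 and 24.7 against them, where those differed from each other by 4.89. Without it 13093 genes passed instead of 12771, with 3998 instead of 3338 at least 2-fold higher. As for the tissue, markers of seed storage summed to less than 13 CPM in each of the 6 libraries and markers of shoot apex and stomata to less than 17 CPM, while the epidermal genes PDF1 and CER6 had at least 981.9 and 320.9 CPM in each. Root markers were not near 0, with sums of 862, 1199 and 958 CPM in the dark and 77.5, 81.7 and 91.8 CPM after the dose.

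The high dose changed most of the measured transcriptome, about equally in both directions. Of the tested genes 12771 passed, which is 64.5%, with 6541 higher (33.0%) and 6230 lower (31.5%). Changes of at least 2-fold were found in 3338 genes that rose (16.9%) and 3079 that fell (15.6%). By the fitted values large changes were mostly increases, with 363 genes up and 30 genes down by at least 64-fold. At 4-fold the numbers were 1573 and 1285. These classes used no floor of counts, and 215 genes without a count in the dark libraries passed as higher. In the other direction 35 genes without a count in the high-dose libraries passed as lower. The part of such genes in the 64-fold class was not counted. The median log2 fold change over all tested genes was 0.03 and the quartiles were -0.65 and 0.71. All 3 high-dose libraries lay outside the range of the dark libraries for 13025 genes (65.8%).

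**Figure D1:**
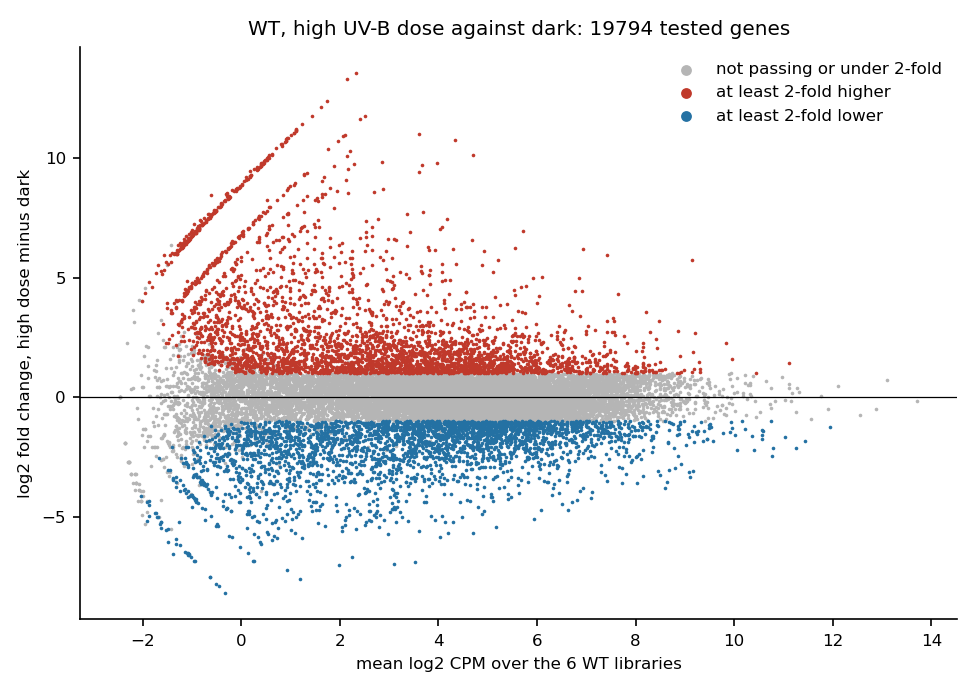
Each point is 1 of the 19794 tested genes, with its mean log2 CPM over the 6 libraries on the x axis and its log2 fold change, WT high dose minus dark, on the y axis. Red and blue points passed at 2-fold or more, 3338 higher and 3079 lower. The rows of points at the upper left are genes with 0 or very few counts in the dark, whose fitted fold changes depend on edgeR's default prior count.

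Genes that rose had lower levels in the dark than genes that fell. The dark level is part of the fold change that sorted these genes, so part of the values below follows from the sorting. A gene rare in the dark also passes the filter on low counts only if other libraries hold counts. Genes at least 2-fold higher had a median of 2.43 CPM in the dark, genes at least 2-fold lower 25 CPM, and all tested genes 15.6 CPM. Of the counts in the dark libraries, 28.0% fell on genes that were at least 2-fold lower after the dose, and these genes held 8.81% of counts in the high-dose libraries. The share of the genes at least 2-fold higher went from 4.63% to 17.7%. In all, 27.2% of counts moved from one locus to another. A set of 227 tested genes had no count in the 3 dark libraries, and 215 of them passed as higher. In the other direction 78 genes had no count in the high-dose libraries, and 35 of them passed as lower.

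Among the most abundant transcripts the water channels and a cell wall enzyme gave way to lipid transfer, glycolytic and detoxification genes. PYK10, the main beta-glucosidase of the endoplasmic reticulum bodies, was the most abundant transcript in both groups, with 14320, 13830 and 14180 CPM in the dark and 12850, 12000 and 13330 CPM after the dose, and did not pass (-0.15 ± 0.10, adjusted p = 0.19). The others of the highest levels that did not pass were the methionine synthase ATMS1, the S-adenosylhomocysteine hydrolase HOG1, the glyoxylate cycle enzyme ICL and the cytosolic chaperone HSC70-1, of which ICL passed when WT dark replicate 1 was left out (log2 fold change 1.01). The largest losses in CPM were in DELTA-TIP (AT3G16240), a vacuolar water channel, at 3893, 6001 and 5468 CPM in the dark and 1124, 1104 and 1307 CPM after the dose. The plasma membrane water channel PIP3 fell from 5205 ± 434 to 1456 ± 35.4 CPM (SD, n = 3), and XTH4, which cuts and rejoins xyloglucan in the wall, from 4121 ± 857 to 737 ± 32.1 CPM. The largest gains were in the lipid transfer protein gene LTP2, from 6867 ± 878 to 11250 ± 972 CPM, in AT3G41768, annotated as an 18S ribosomal RNA, and in the cytosolic glyceraldehyde-3-phosphate dehydrogenase GAPC1, from 1362 ± 203 to 3663 ± 244 CPM. TCH3, a calmodulin-like calcium sensor, was at 16.3, 24.3 and 26.2 CPM in the dark and at 1070, 1658 and 1411 CPM after the dose, with no overlap.

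Of the 12 largest increases, genes of immunity and detoxification stood beside genes with no known role. UGT74E1 (AT1G05675), a glycosyltransferase gene, had no counts in the dark libraries and 107.2, 159.7 and 149.9 CPM after the dose. FOX1 (AT1G26380), an oxidase of the synthesis of indole carbonyl nitriles, had none and then 60.6, 130.0 and 158.0 CPM. AT5G24640, an uncharacterized protein gene, went from 0 to a mean of 62.4 CPM, at least 643.5-fold higher. Where the dark libraries held 0 counts, 3 counts over the group stood in for them, so that such a fold is a lower limit and covers counting error only. By the same floor AT1G64290, an F-box protein gene, was at least 420.9-fold higher, AOX1D, an alternative oxidase, at least 284.7-fold, PHT3;2, a mitochondrial phosphate carrier, at least 276.0-fold, AT2G23270 at least 271.4-fold and CML40, a calmodulin-like protein gene, at least 270.5-fold. AT3G41762 and AT2G01008 also belonged to the 12. From 1 count each in the dark libraries they reached 4662 times (counting interval 836.1 to 184200) and 4277 times (767.0 to 169000) their dark level, and in the reference annotation they lie 812 and 533 bases from loci of 18S ribosomal RNA, whose counts rose too. Reads shared by UGT74E1 and its neighbour UGT74E2 may have been split between them, since the handling of such reads is not given in the sources used here.

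**Figure D2:**
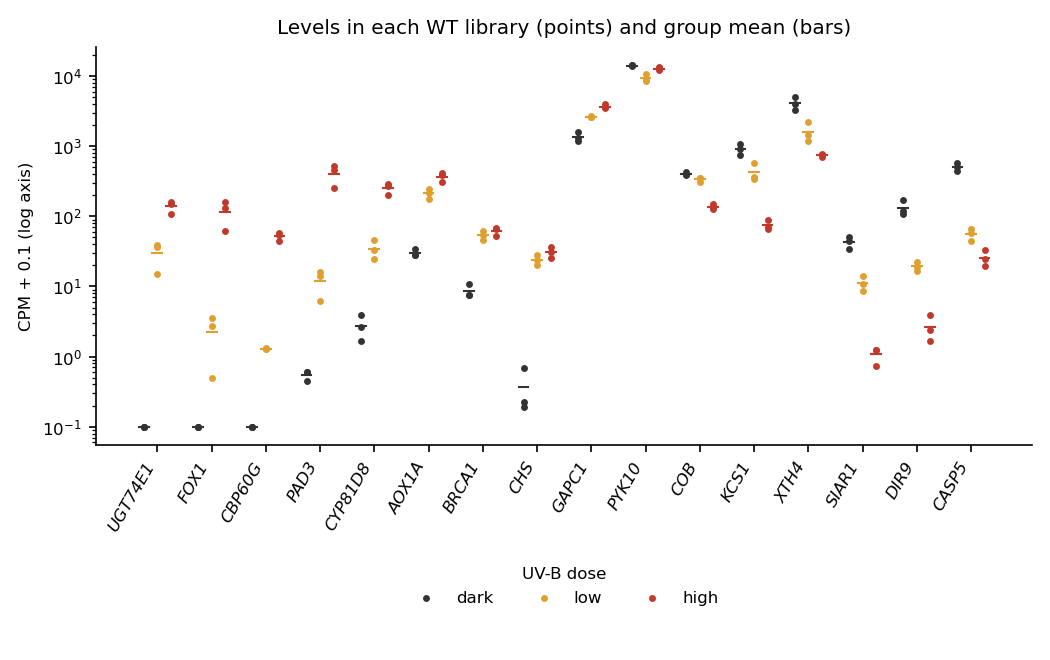
Levels of 16 genes in each WT library in the dark (black), after the low dose (orange) and after the high dose (red), as CPM + 0.1 on a log axis, with bars for group means. From UGT74E1 to GAPC1 every high-dose library is above every dark library, PYK10 does not pass although its groups do not overlap, and from COB to CASP5 every high-dose library is below every dark library.

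Of the 12 largest decreases, 3 were in genes of dirigent proteins. DIR23 (AT2G21100), of the family that guides the coupling of lignin precursors, was 215.6 times lower, with a counting interval of 59.4 to 1784, since 2 counts remained in the high-dose libraries. Its relatives DIR24 and DIR9 fell as well, DIR9 (AT2G39430) from 108.3, 170.4 and 120.7 CPM to 1.55, 2.26 and 3.81 CPM. The log2 fold change was -5.73 for BDG2, a hydrolase of cuticle formation, -7.05 for the glycine-rich protein gene AT4G18280, -5.87 for the metal-binding protein gene HIPP31 and -5.59 for the SAUR gene AT2G21210, of a family that promotes expansion. The others among the 12 were the bHLH factor gene B70, AT1G78230, AT4G23870, AT5G67020 and AT1G47610, with log2 fold changes between -6.97 and -5.67. For each of the 12 all high-dose libraries lay below all dark libraries.

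Genes of tryptophan synthesis and of the pathways that turn tryptophan into defence compounds rose together. All but 1 of the 22 tested members passed as higher by at least 2-fold, against 16.9% of all tested genes. The median log2 fold change was 2.39. Members of this and the other lists were chosen with earlier results of these data known. Their counts therefore describe the chosen genes and do not test a pathway. TSA1, the alpha subunit of tryptophan synthase, went from 58.1, 41.6 and 42.5 CPM to 296.2, 460.7 and 363.5 CPM (2.97 ± 0.18), its partner TSB1 changed by 2.75 ± 0.18, and the phosphoribosyltransferase PAT1 by 2.04 ± 0.12. PAD3 (AT3G26830), the last enzyme of camalexin synthesis, was at 0.501, 0.504 and 0.354 CPM in the dark and at 249.3, 515.9 and 452.8 CPM after the dose (9.78 ± 0.51, adjusted p = 1.7e-12), against a mean of 12.02 CPM at the low dose. The exception, named after its values were seen, was MYB34, a regulator of indolic glucosinolate synthesis, which fell by 1.94, while its relatives MYB51 and MYB122 rose by 2.48 and 2.17. CYP71A12 and CYP71A13, near-identical genes of camalexin synthesis, had no counts in the dark and at most 1.85 CPM after the dose. The aliphatic glucosinolate genes, whose products come from methionine, mostly did not pass, with 2 of 9 higher, 1 lower and a median of 0.20 (0.62 without WT dark replicate 1).

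Immune regulators rose with them, where 33.0% of all tested genes rose and 31.5% fell. Of 15 genes of salicylic acid and pipecolate immunity 14 rose and 1 fell (median 2.45, or 2.86 without WT dark replicate 1). The transcription factor CBP60G (AT5G26920) had no counts in the dark and 43.6, 54.1 and 57.4 CPM after the dose. WRKY70, a factor downstream of salicylic acid, changed by 2.99 ± 0.27, SARD4, of pipecolate synthesis, by 2.45 ± 0.23, and the salicylic acid receptor gene NPR1 by 1.14 ± 0.12. Among 22 genes of pattern receptors, the oxidative burst and MAP kinases 15 rose and 4 fell (median 0.93). The kinase MPK3 went from 28.0, 32.5 and 36.1 CPM to 112.4, 122.4 and 135.8 CPM (1.94 ± 0.14), RBOHD, the oxidase of the immune burst, changed by 2.27 ± 0.16, and PEPR1, a receptor of danger peptides, by 1.27 ± 0.11. MPK11 was close to 0 in the dark and reached 6.56, 12.4 and 13.5 CPM.

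Among families of signalling genes the receptor-like kinases and calcium sensors rose more often than all tested genes, of which 33.0% rose and 31.5% fell. Of 27 tested cysteine-rich receptor-like kinases, which sit at the plasma membrane and are known from immunity, 19 rose (70.4%) and 4 fell (median 2.60, or 3.71 without WT dark replicate 1). CRK11 went from 0.919, 2.02 and 1.94 CPM to 84.2, 118.8 and 138.4 CPM. Calmodulin-like calcium sensors split into 17 that rose (54.8%) and 5 that fell of 31, with CML10 at 2.56 ± 0.14 and CML41 at 6.61 ± 0.48. WRKY factors, the main class of immune transcription factors, split into 23 (45.1%) and 14 (27.5%) of 51, with WRKY25 at 3.75 ± 0.23 and WRKY33 (AT2G38470) at 8.02, 6.31 and 20.4 CPM in the dark and 236.8, 312.6 and 326.3 CPM after the dose. NAC factors split into 27 (43.5%) and 11 (17.7%) of 62, from NAC013 (4.397 ± 0.227) to NAC1, a factor of auxin-dependent root branching (-4.90 ± 0.29). ERF and DREB factors were near the shares of all genes, with 27 higher (39.1%) and 23 lower (33.3%) of 69.

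The promoters of 2 of the largest increases show the motif that WRKY factors bind. The 250 bases before the annotated gene start (RefSeq, TAIR10.1), 5′ to 3′ on the gene's strand, are given for UGT74E1 at chr1:1702750-1702999 and FOX1 at chr1:9128569-9128818, both on the minus strand. Capitals mark the W-box core TTGACC or its variant TTGACT, on either strand.
UGT74E1: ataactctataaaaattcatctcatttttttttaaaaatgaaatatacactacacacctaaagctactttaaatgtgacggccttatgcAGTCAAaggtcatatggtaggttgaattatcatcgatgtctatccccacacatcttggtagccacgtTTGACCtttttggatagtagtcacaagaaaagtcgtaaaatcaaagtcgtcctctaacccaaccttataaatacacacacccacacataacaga
FOX1: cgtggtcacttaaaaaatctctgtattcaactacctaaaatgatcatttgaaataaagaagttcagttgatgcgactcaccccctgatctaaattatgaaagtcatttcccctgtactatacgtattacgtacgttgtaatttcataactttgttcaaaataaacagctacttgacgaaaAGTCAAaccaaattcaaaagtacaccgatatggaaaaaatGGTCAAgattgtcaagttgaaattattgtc
Each holds 1 match of each form. TTGACC was found on either strand in 16.1% of promoters of genes at least 2-fold higher, 10.1% of those at least 2-fold lower and 12.3% of all tested genes. TTGACT was found in 24.9, 16.8 and 19.0% of the same sets, in 31.5% of promoters of genes at least 4-fold higher and in 19.1% of all RefSeq protein-coding promoters. A match is a run of letters and not a measured binding site.

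Most detoxification genes rose. Of 20 genes of xenobiotic detoxification, which oxidise, conjugate and export foreign or damaged molecules, 19 rose and 1 fell, with a median of 4.12 (3.96 without WT dark replicate 1, where the mitochondrial retrograde list had 4.08). DTX3 (AT2G04050), a MATE exporter, went from 0.334, 0.126 and 0.0884 CPM to 340.0, 503.5 and 431.8 CPM (11.03 ± 0.47, adjusted p = 8.9e-14). CYP81D8, a cytochrome P450, changed by 6.57 ± 0.31 and UGT74E2, which conjugates an auxin precursor with glucose, by 4.32 ± 0.28. DTX3 and its near copy DTX4 may share reads, as may GSTU24 and GSTU25. In the wider families 21 of 34 tau and phi glutathione transferases rose and 4 fell, and their summed level went from 2711 ± 203 to 9995 ± 2059 CPM. MATE transporters had 19 higher and 9 lower of 40. Glycosyltransferases and cytochrome P450s moved both ways. Of 76 glycosyltransferases 32 rose (42.1%) and 28 fell (36.8%), and of 143 cytochrome P450s 46 rose (32.2%) and 56 fell (39.2%). These shares stand beside 33.0 and 31.5% of all tested genes. UGT79B8 fell from 37.6, 35.8 and 46.6 CPM to 1.67, 1.94 and 1.16 CPM, and CYP706A1 rose from under 0.2 CPM in each dark library to 113.3, 178.9 and 176.4 CPM.

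Mitochondrial retrograde genes, which answer to blocked respiration, had 10 of 12 higher and none lower (median 4.01). Among all tested genes 33.0% were higher. NDB4, an alternative NADH dehydrogenase, had 2 counts in the dark libraries together and 75.8, 92.0 and 77.4 CPM after the dose. AOX1A (AT3G22370), the alternative oxidase that bypasses the later complexes of the chain, went from 27.9, 27.6 and 34.5 CPM to 303.9, 417.3 and 385.8 CPM (3.62 ± 0.20). OM66, a protein of the outer membrane, changed by 6.12 ± 0.39. The membrane-bound NAC factors NAC017 and NAC078 did not pass, at 0.05 ± 0.10 and 0.17 ± 0.12.

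Sulfate assimilation and glutathione synthesis supply the conjugating enzymes. Of 13 genes 10 rose by at least 2-fold and 1 fell, with a median of 1.60. Sulfite reductase SIR went from 87.0, 91.8 and 96.7 CPM to 295.0, 370.3 and 306.9 CPM (1.82 ± 0.11), the ATP sulfurylase APS1 changed by 2.77 ± 0.17, the adenylylsulfate reductase APR1 by 3.90 ± 0.30 and the glutathione synthetase GSH2 by 1.60 ± 0.12. The member that fell, named after its values were seen, was the root sulfate transporter gene SULTR1;2 (-1.50 ± 0.42), whose low-dose mean of 15.96 CPM was above both its dark and its high-dose levels. Antioxidant enzymes moved less, with 8 of 13 higher, 2 lower and a median of 0.58 (1.16 without WT dark replicate 1). Their summed level went the other way, from 11730 ± 149 CPM in the dark to 10250 ± 38.3 CPM after the dose (SD, n = 3). Glutathione reductase GR1 rose by 1.25 ± 0.12 and the glutathione peroxidase GPX6 by 1.77 ± 0.20.

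Promoters of DTX3 at chr2:1339469-1339718 and CYP81D8 at chr4:17571744-17571993, both on the minus strand, are shown for the motif bound by NAC factors of mitochondrial retrograde signalling, in capitals, which reads CTTG, 5 bases of any kind, CA, 1 base of any kind and G.
DTX3: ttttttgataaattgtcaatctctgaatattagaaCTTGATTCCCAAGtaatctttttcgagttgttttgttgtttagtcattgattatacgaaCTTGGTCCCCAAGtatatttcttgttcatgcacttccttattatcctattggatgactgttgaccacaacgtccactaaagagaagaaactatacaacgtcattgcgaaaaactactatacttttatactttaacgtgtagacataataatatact
CYP81D8: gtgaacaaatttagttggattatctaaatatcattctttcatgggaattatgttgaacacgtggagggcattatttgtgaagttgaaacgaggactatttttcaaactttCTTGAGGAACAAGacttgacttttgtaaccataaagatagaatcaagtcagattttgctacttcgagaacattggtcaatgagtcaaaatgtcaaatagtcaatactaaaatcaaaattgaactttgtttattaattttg
The match stands at 2 positions in DTX3 and 1 in CYP81D8. On either strand the motif was in 3.32% of promoters of genes at least 2-fold higher, 5.94% of those at least 4-fold higher, 1.09% of those at least 2-fold lower and 1.55% of all tested genes.

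Most transcripts of DNA damage signalling genes rose, and those of genes that repair UV lesions changed little. Of 20 genes of the SOG1 pathway and the damage checkpoint 17 rose and 1 fell, with a median of 1.88. BRCA1, of homologous recombination, went from 7.44, 7.44 and 10.6 CPM to 67.2, 66.0 and 52.2 CPM (2.85 ± 0.18, adjusted p = 4.4e-12), against a low-dose mean of 54.0 CPM. XRI1 changed by 2.36 ± 0.15, the checkpoint factor NAC044 by 4.74 ± 0.34 and SMR7, an inhibitor of cyclin-dependent kinases, by 5.23 ± 0.39. None of these 4 passed between the high and the low dose, where XRI1 differed by 0.15 ± 0.13 and NAC044 by 0.43 ± 0.25 on the log2 scale. SOG1 itself did not pass (-0.06 ± 0.12). Of 14 genes of photolyases and nucleotide excision repair 5 rose (35.7%) and 2 fell (14.3%), with a median of 0.15. Over all tested genes the shares were 33.0 and 31.5%. DDB1B, a damage recognition subunit, rose by 0.68 ± 0.11, and the nuclease gene UVH1 was at -0.30 ± 0.11 (adjusted p = 0.019), a call that 4 alternatives lost.

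Promoters of NAC044 at chr3:228825-229074 on the plus strand and SMR7 at chr3:10231568-10231817 on the minus strand are shown for the SOG1 site, in capitals, which reads CTT, 7 bases of any kind and AAG.
NAC044: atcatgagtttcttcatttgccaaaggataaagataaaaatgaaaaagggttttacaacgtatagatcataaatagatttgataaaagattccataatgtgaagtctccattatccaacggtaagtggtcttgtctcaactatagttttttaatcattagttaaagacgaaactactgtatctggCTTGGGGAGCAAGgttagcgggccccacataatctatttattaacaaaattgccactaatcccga
SMR7: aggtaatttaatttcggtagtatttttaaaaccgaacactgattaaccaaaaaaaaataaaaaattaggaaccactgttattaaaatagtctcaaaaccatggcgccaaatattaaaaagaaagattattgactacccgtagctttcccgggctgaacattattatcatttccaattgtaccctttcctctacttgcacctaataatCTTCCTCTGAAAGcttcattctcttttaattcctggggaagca
The site was in 10.9% of promoters of genes at least 2-fold higher, 13.4% of those at least 4-fold higher, 7.53% of those at least 2-fold lower and 8.94% of all tested genes. Among the 20 promoters of the SOG1 list 5 held it. The matches marked in DTX3, CYP81D8 and NAC044 fit both this site and the mitochondrial motif above, so the sets of promoters overlap.

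Most replication genes rose and few mitotic genes passed, where 33.0% of all tested genes rose and 31.5% fell. Of 28 genes of replication licensing and polymerases 22 rose, 4 of them by at least 2-fold, and none fell (median 0.71). Without WT dark replicate 1 the number at 2-fold was 10. POLD4, a subunit of the polymerase that also fills repair gaps, went from 18.9, 14.5 and 14.7 CPM to 52.1, 69.1 and 54.0 CPM, and the helicase subunits MCM2 and MCM5 changed by 1.01 ± 0.10 and 0.86 ± 0.11. Of 19 genes of mitosis and cytokinesis 4 rose and 1 fell, none by 2-fold, with a median of 0.02. Without WT dark replicate 1, 7 rose, 3 of them by 2-fold, and the median was 0.47. That library was the highest dark library for KNOLLE, a cytokinesis syntaxin named after its values were seen, at 26.99 CPM against 11.2 and 12.8 CPM. Of 28 cyclins 6 rose and 3 fell, 2 by at least 2-fold or 4 without that library, led by CYCB1;1, which is also a damage-induced cyclin (1.5 ± 0.2).

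Light responses were mixed. Of 21 genes of the UVR8 pathway and flavonol synthesis 8 rose (38.1%) and 4 fell (19.0%), with a median of 0.68. Over all tested genes 33.0% rose and 31.5% fell. UVR8 did not pass at -0.08 ± 0.14. Chalcone synthase CHS, the entry to flavonoids, was at 0.585, 0.126 and 0.0884 CPM in the dark and at 24.97, 36.01 and 30.38 CPM after the dose (6.67 ± 0.51), against a low-dose mean of 23.8 CPM, and flavonol synthase FLS1 changed by 4.57 ± 0.49. Of 46 nuclear genes of light harvesting and the photosystems 40 rose and none fell (median 1.18), although the seedlings went back to the dark. The photosystem I subunit PSAF went from 142.1, 152.8 and 145.8 CPM to 381.9, 396.1 and 301.4 CPM, and LHCA1, an antenna protein, from 27.4, 32.4 and 26.1 CPM to 114.8, 134.7 and 67.4 CPM. Of 15 genes of dark growth and photoreceptors 9 fell and 1 rose (median -0.98), with the growth-promoting factor PIF1 at -1.47 ± 0.15, PIF4 at -1.84 ± 0.25 and the blue light receptor CRY1 at -1.12 ± 0.12. Of 15 circadian clock genes 7 fell and 1 rose, with CHE at -2.08 ± 0.18.

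Most genes of the ribosome and the proteasome rose. Of 190 cytosolic ribosomal protein genes 180 rose and none fell, with a median of 0.85 and 44 at 2-fold or more. Their summed level was 34150, 22590 and 20380 CPM in the dark and 45000, 45020 and 46480 CPM after the dose, so that WT dark replicate 1 lay nearest to the treated libraries. Without it 187 rose, 132 of them by at least 2-fold, and the median was 1.10. RPL7A went from 25.7, 21.8 and 21.4 CPM to 70.9, 79.0 and 79.0 CPM. Of 49 genes of the 26S proteasome 43 rose and none fell, 3 of them by 2-fold or more, or 6 without WT dark replicate 1 (median 0.56), with PAD2 at 1.09 ± 0.13 and RPT3 at 0.87 ± 0.11. The letters TGGGCC, known as site II, were in the promoters of 53.7% of the 190 ribosomal and 36.7% of the 49 proteasome genes, against 16.7% of all tested genes. Of 32 autophagy genes 13 fell (40.6%) and 3 rose (9.38%), against 31.5 and 33.0% of all tested genes. ATG8B rose most clearly (2.02 ± 0.25).

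Heat shock genes rose in part and few folding genes of the endoplasmic reticulum passed. The shares of all tested genes were 33.0% higher and 31.5% lower. Of 24 heat shock proteins and factors 12 rose and 4 fell, with a median of 1.63 that was 0.78 without WT high replicate 1. The factors HSFA8 and HSFA4A changed by 2.98 ± 0.20 and 3.97 ± 0.28, and HSP23.6, a mitochondrial small heat shock protein, went from 0.585, 0.252 and 0.0884 CPM to 19.05, 24.06 and 21.95 CPM. Of 15 genes of endoplasmic reticulum folding 4 rose and 1 fell (median -0.08). BZIP60 and NAC103, transcription factors of the unfolded protein response, were among the 4 at 1.72 ± 0.16 and 3.75 ± 0.48.

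**Figure D3:**
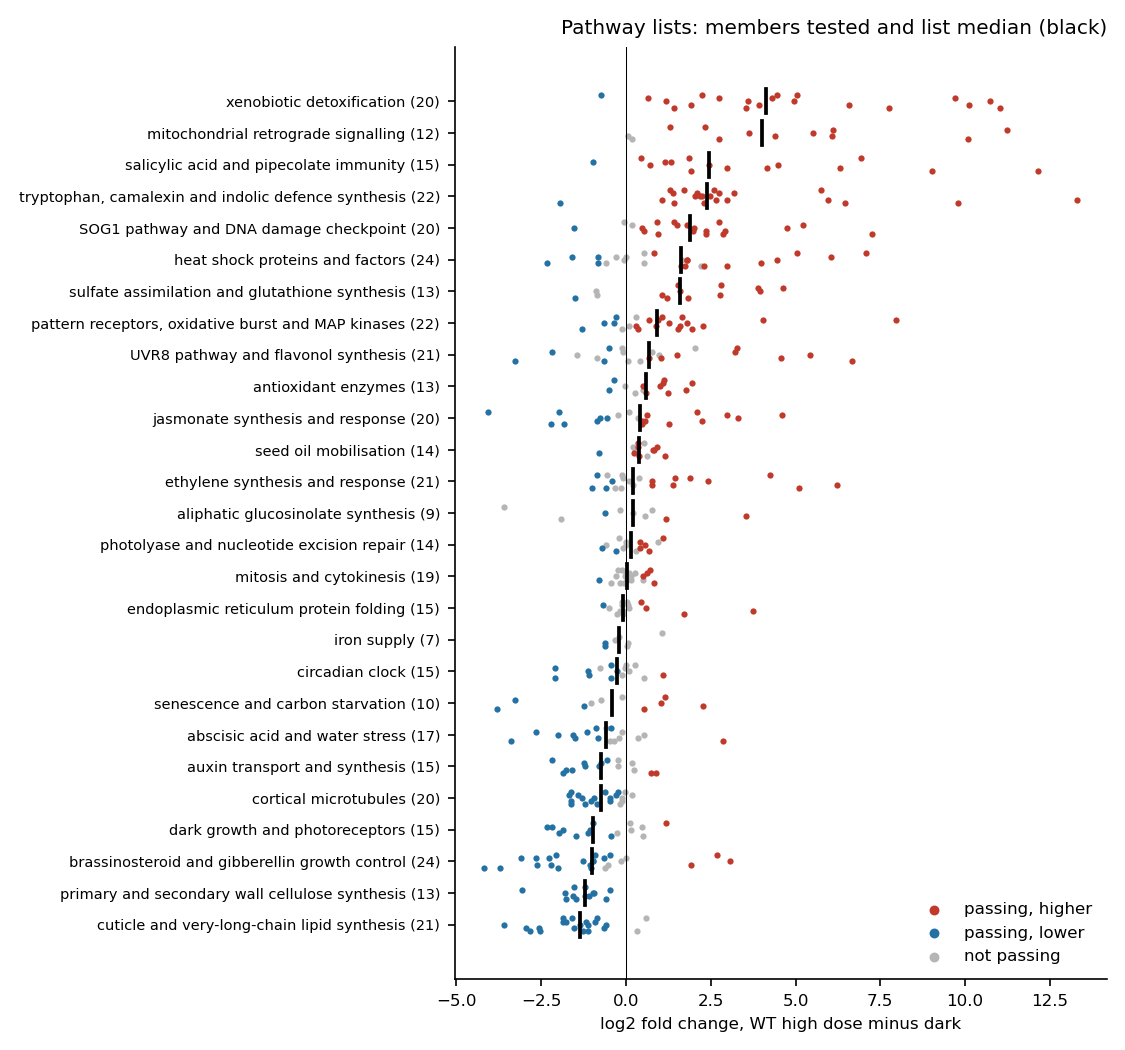
Log2 fold changes (x axis, WT high dose minus dark) of the tested members of 27 pathway lists, sorted by the list median (black bar). Red members passed as higher, blue as lower and grey did not pass. Numbers of tested members follow the names, and medians run from 4.12 for xenobiotic detoxification to -1.35 for the cuticle list.

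All 13 listed genes of cellulose synthesis passed as lower, against 31.5% of all tested genes, with a median of -1.21. The cellulose synthase CESA2 went from 122.3, 138.0 and 134.2 CPM to 43.9, 38.1 and 34.8 CPM (-1.76 ± 0.10, adjusted p = 1.5e-12), COB, an anchored protein of the growing wall, changed by -1.55 ± 0.10 and the wall-sensing receptor kinase THE1 by -3.06 ± 0.21. Of 20 genes of cortical microtubules, which guide cellulose synthase, 15 fell and none rose (median -0.74). TUB1, a beta-tubulin, changed by -1.62 ± 0.13 and CSI1, which tethers the synthase to microtubules, by -1.61 ± 0.13, while TUB2 and TUA4, named after their values were seen, did not pass at -0.12 ± 0.08 and -0.18 ± 0.10. Tubulin genes are near-identical, so that reads may be split among them.

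Enzymes that loosen or modify the wall followed, where 31.5% of all tested genes fell and 33.0% rose. Of 26 xyloglucan endotransglucosylases 12 fell and 5 rose, and their summed level fell from 9184 ± 1614 to 1852 ± 57.2 CPM. XTH8 went from 276.4, 392.2 and 354.7 CPM to 39.4, 20.7 and 25.8 CPM, and XTH28 rose by 1.38 ± 0.11. Among 20 expansins 11 fell and 2 rose, with EXPA8 at -4.24 ± 0.40, and among 25 pectin methylesterases 12 fell and 4 rose, from PME2 at -4.20 ± 0.26 to PME12 at 2.55 ± 0.16. Class III peroxidases, which stiffen walls, had 23 lower and 12 higher of 50, and PRXCA rose from under 0.2 CPM in each dark library to 57.3, 102.7 and 116.8 CPM. Arabinogalactan proteins of the cell surface had 32 lower and 4 higher of 41 (median -1.78), with AGP7 at 434.4, 619.8 and 469.8 CPM in the dark and 21.5, 15.3 and 20.8 CPM after the dose.

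Genes of the cuticle and of water channels fell together with those of the wall, against 31.5% lower and 33.0% higher over all tested genes. Of 21 genes of the cuticle and very-long-chain lipids 19 fell and none rose (median -1.35), while 2 rose without WT dark replicate 1. KCS1, which elongates fatty acids for wax, went from 751.8, 1081 and 896.0 CPM to 89.1, 65.7 and 70.7 CPM (-3.60 ± 0.26), the wax exporter ABCG12 changed by -2.84 ± 0.18 and the cutin enzyme GPAT8 by -2.56 ± 0.17. Of 27 aquaporins 23 fell and 2 rose (median -1.68), and together they dropped from 35960 ± 4162 to 13700 ± 474 CPM. PIP1A was at 1017, 1191 and 1067 CPM in the dark and at 190.6, 188.9 and 208.7 CPM after the dose. UMAMIT transporters, which export amino acids and auxin, had 18 lower and 1 higher of 28 (median -1.59), with SIAR1 at 34.4, 50.9 and 44.5 CPM in the dark and 0.644, 1.13 and 1.16 CPM after the dose.

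SAUR genes and the lists of auxin transport and of brassinosteroid and gibberellin control fell more often than they rose. All tested genes had 31.5% lower and 33.0% higher. Of 64 SAUR genes 42 fell and 4 rose (median -2.27), SAUR50 by 3.51 and SAUR28 by 3.14, while SAUR71 rose by 5.32 ± 0.49. Of 15 genes of auxin transport and synthesis 9 fell and 2 rose (median -0.72), with the efflux carriers PIN4 at -1.86 ± 0.14 and PIN3 at -1.24 ± 0.15 and the influx carrier AUX1 at -1.60 ± 0.15. Aux/IAA repressors had 12 lower and 4 higher of 27, a median of -0.16 and AXR3 at -2.51 ± 0.22, and auxin response factors 6 lower and 3 higher of 15 with a median of 0.03, where MP rose by 1.68 ± 0.15. Of 24 genes of brassinosteroid and gibberellin growth control 17 fell and 3 rose (median -1.01). The brassinosteroid factor BES1 went from 218.4, 312.7 and 297.6 CPM to 74.8, 50.2 and 52.9 CPM (-2.22 ± 0.17), the brassinosteroid-inactivating enzyme BAS1 changed by -3.71 ± 0.27 and the DELLA repressor RGA by -1.27 ± 0.10. All libraries had been grown on added GA4.

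MYB, bHLH and bZIP factors fell more often than they rose, while 31.5% of all tested genes fell and 33.0% rose. Of 65 MYB factors 34 fell, 32 of them by at least 2-fold, and 9 rose (median -1.50), with MYB86 at 31.5, 35.6 and 33.6 CPM in the dark and 2.06, 2.26 and 1.85 CPM after the dose, and MYB15, a factor of lignin and stress responses, rising from under 0.2 CPM in each dark library to 17.9, 26.8 and 24.7 CPM. Of 69 bHLH factors 35 fell and 11 rose, with BHLH78 at -3.42 ± 0.31, and of 32 bZIP factors 16 fell and 8 rose. Heat stress factors were near the shares of all tested genes, with 5 higher and 6 lower of 19 (median -0.08). TCP factors had 3 higher and 4 lower of 16, a median of 0.25 that turned to -0.06 without WT dark replicate 3, and TCP15, of cell proliferation, at -2.09 ± 0.16.

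**Figure D4:**
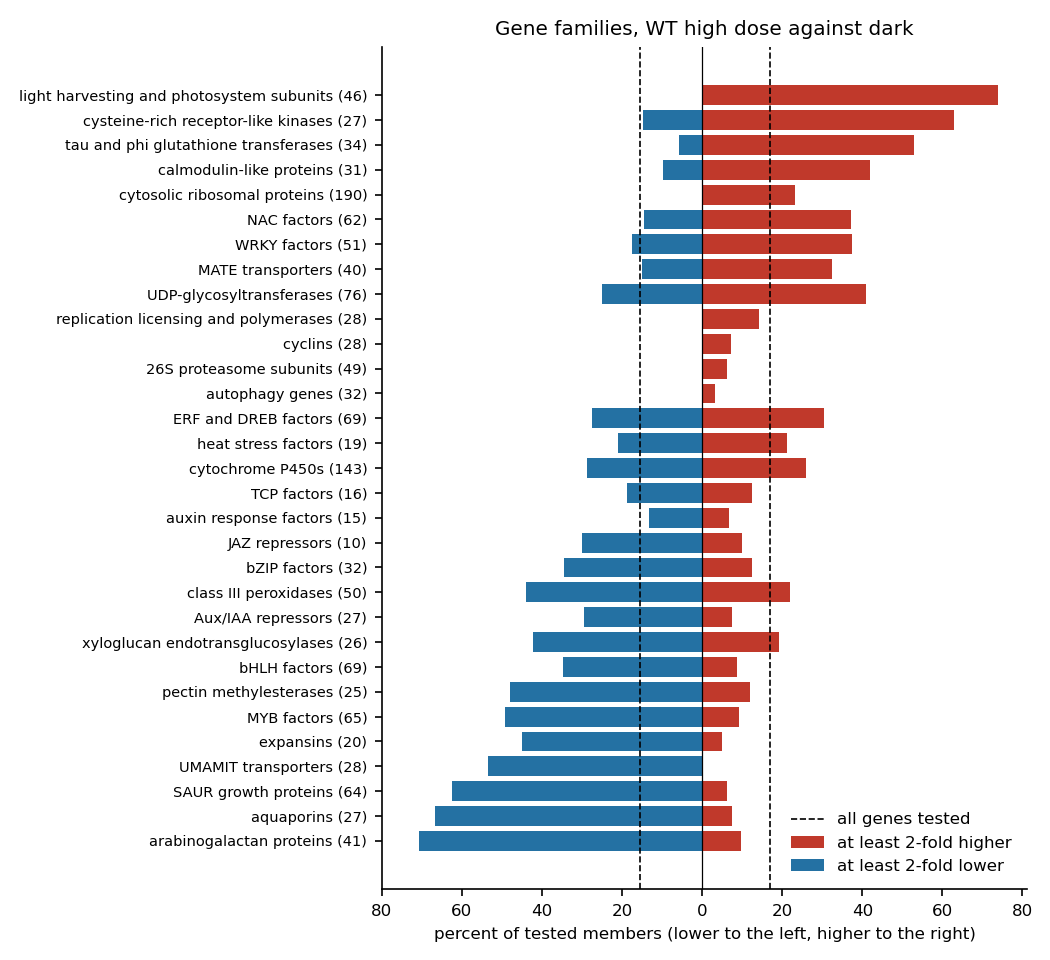
Percent of the tested members of each gene family that passed at 2-fold or more, higher to the right in red and lower to the left in blue, with the shares over all tested genes (16.9 and 15.6%) as dashed lines. Numbers of tested members follow the family names. Arabinogalactan proteins, aquaporins, SAUR genes and UMAMIT transporters lie at the bottom, and light harvesting genes, receptor-like kinases and glutathione transferases at the top.

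Jasmonate and ethylene genes moved both ways, and abscisic acid genes fell more often than they rose. Beside these lists, 33.0% of all tested genes rose and 31.5% fell. Of 20 jasmonate genes 10 rose and 7 fell (median 0.41), with the lipoxygenase LOX3 at 4.59 ± 0.50 and the repressor JAZ9 at -2.20 ± 0.20, and the wider JAZ family had 4 higher and 5 lower of 10. Of 21 ethylene genes 9 rose (42.9%) and 4 fell (19.0%), with a median of 0.22. ERF6 went from 2.09, 1.64 and 3.27 CPM to 64.1, 97.9 and 83.2 CPM, against a low-dose mean of 3.13 CPM, and ERF2 changed by 6.21 ± 0.51. Abscisic acid and water stress genes had 9 lower and 1 higher of 17 (median -0.59), with RD29A, a marker of water deficit, at 95.6, 208.6 and 183.6 CPM in the dark and 17.5, 14.9 and 14.1 CPM after the dose. Among 10 genes of senescence and carbon starvation 4 rose and 3 fell, with the starvation gene DIN10 at -3.81 ± 0.26 and SAG21 at 2.27 ± 0.18. Seed oil mobilisation had 8 higher and 1 lower of 14 (median 0.38), or 13 higher (median 0.75) without WT dark replicate 1, and of 7 iron supply genes 2, the ferritins FER3 and FER1, fell.

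Markers of other cell types changed as well. In bulk samples fewer cells of a type and less RNA per cell cannot be told apart. Of 12 root genes 9 fell by at least 2-fold and none rose, and their summed level was 862, 1199 and 958 CPM in the dark, 214, 157 and 177 CPM at the low dose and 77.5, 81.7 and 91.8 CPM at the high dose. The sum was carried by the Casparian strip genes CASP1 to CASP5, and the root meristem markers WOX5 and PLT1 were at or near 0. CASP5 went from 436.0, 580.3 and 506.4 CPM to 24.3, 19.2 and 33.5 CPM (-4.29 ± 0.48). All 5 epidermis markers fell (median -1.17) and 6 of 9 vascular markers fell while 2 rose (median -0.77), with the phloem sugar carrier SUC2 at -1.12 ± 0.15. Of 11 shoot apex and stomata genes 3 rose, with sums of 15.5, 4.8 and 5.0 CPM in the dark and 14.8, 10.8 and 16.6 CPM after the dose, and of 8 seed storage genes none passed (median 0.09). Without WT dark replicate 1, 5 of the shoot apex and stomata genes rose (median 1.98) and 1 of the seed storage genes (median 1.42). The part of these markers in the decreases of wall, cuticle and hormone genes was not tested.

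Transcripts that usually carry no poly(A) tail rose more than any other kind of locus. The 3 tested rRNA loci summed to between 73.8 and 84.5 CPM in the dark, 287 to 352 CPM at the low dose and 3557 to 4576 CPM at the high dose. Of 19 small nuclear RNAs 18 rose (median 4.02) and of 69 small nucleolar RNAs 42 rose (median 1.58), with 1 lower in each kind. Of 56 tested genes of the chloroplast genome 50 rose and none fell (median 3.13), and all 18 of the mitochondrial genome rose (median 4.36), to 9.59 times their summed dark level. Replicate 3 had the lowest rRNA and organelle sums of the high-dose libraries, with 1353 CPM of mitochondrial transcripts against 2160 and 2145 CPM. In the high-dose libraries rRNA held at most 0.468% and organelle transcripts at most 0.249% of counts, and protein-coding genes had a median of 0.03. How RNA was selected for the libraries is not given in the sources used here, and the part of that step in these values was not tested.

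**Figure D5:**
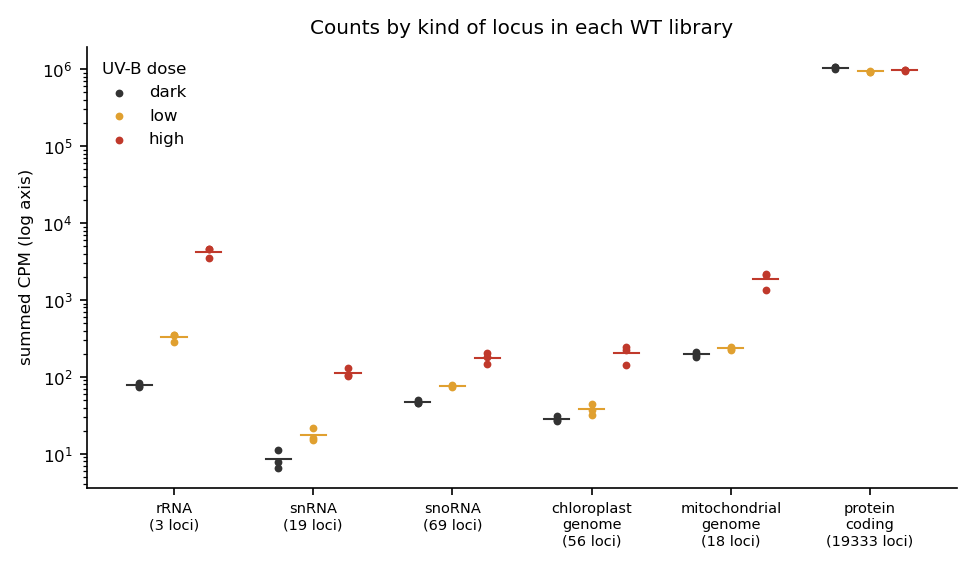
Summed CPM of the tested loci of each kind in each WT library in the dark (black), after the low dose (orange) and after the high dose (red), on a log axis, with bars for group means. The kinds run from the 3 rRNA loci to 19333 protein-coding genes, and for each kind but the last all high-dose libraries lie above all dark libraries.

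Short genes and genes without introns changed more often than long ones. Of the 3867 shortest protein-coding genes, up to 1584 bases long, 23.0% rose and 20.3% fell by at least 2-fold, and of the 3867 longest, from 3640 bases, 11.2% and 11.4%. Of 2980 genes without introns 704 rose and 735 fell by at least 2-fold, and of 8027 with 5 or more introns 1029 rose and 803 fell. The medians of these 4 sets lay between -0.02 and 0.12. Short genes also had lower levels, with a median of 5.93 CPM in the dark against 28.5 CPM in the longest. Among genes with a mean log2 CPM of at least 3 the shares were 15.3 and 18.6% in the 2531 shortest and 7.90 and 9.76% in the 2531 longest. At that level 198 of 1251 genes without introns rose and 351 fell (median -0.25), and 610 of 6258 with 5 or more introns rose and 555 fell.

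Against the low dose, 9193 genes differed after the high dose (46.4%), 4534 higher (22.9%) and 4659 lower (23.5%), a majority that DESeq2 size factors turned (4767 and 4491). The dose step was steep for some groups and flat for others. In the tryptophan and camalexin list 20 of 22 members were higher after the high than after the low dose, with a median difference of 2.28 on the log2 scale, and in the SOG1 list 4 of 20 were higher with a median of 0.22. Of 190 ribosomal protein genes 142 were higher and none lower, and of 46 light harvesting genes 6 were higher and none lower. For water channels 9 of 27 were lower and 2 higher, as PIP3 had already been at 1836 ± 343 CPM at the low dose.

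The same dose was given to the mutants, whose libraries share none with WT. Of the 3338 genes at least 2-fold higher in WT, 3130 (93.8%) also passed as higher in xpf-3 and 2859 (85.7%) in uvr8-6, and of the 3079 at least 2-fold lower, 2898 (94.1%) and 2737 (88.9%) passed as lower. The median log2 fold change of the higher set was 1.91 in WT, 2.02 in xpf-3 and 1.17 in uvr8-6. That of the lower set was -1.79, -1.98 and -1.31. In the 2 sets 226 and 130 genes differed from WT in xpf-3 and 604 and 655 in uvr8-6. Both sets were chosen by their WT change, which favours larger values in WT. Of all tested genes 73.3% passed in xpf-3, 37.8% as higher and 35.5% as lower, and 57.7% in uvr8-6, 32.2% as higher and 25.4% as lower. The 12 largest increases and the 12 largest decreases of WT passed in the same direction in both mutants. The response differed from WT in 1849 genes in xpf-3 (9.34%) and in 1625 in uvr8-6 (8.21%). The first count was 177 without WT dark replicate 1, 379 without WT high replicate 2 and 623 without xpf-3 dark replicate 3, and 1054 and 1049 without xpf-3 high replicates 2 and 3. The second was 945 and 827 without WT dark or high replicate 2, and 998 and 907 without uvr8-6 dark replicate 2 or high replicate 1. The uvr8-6 libraries come from a later sequencing run, and run and genotype cannot be told apart.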

How the data were processed

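The deposited counts are raw reads per locus for 32832 loci in 27 libraries of 9 groups, 26893 loci with a count. The submitters' processing notes name FastQC, Trimmomatic, HISAT2 and DESeq2, while no source used here gives the genome build or the counting rule. A second deposited table holds normalised counts (signal), which the authors made from those counts. It served to recover their scaling factors.

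Members and lists were chosen with earlier results of these data known. edgeR 4.0.16 (R 4.3.3, limma 3.58.1) fitted all 9 groups with TMM scaling and a filter on low counts (19794 genes kept). The robust quasi-likelihood test had 18 residual degrees of freedom and Benjamini-Hochberg adjustment over all genes. Fitted fold changes used edgeR's default prior count, and a prior count of 2 entered the log2 CPM values only. DESeq2 1.42.0 was an alternative. On simulated data with 200 changed genes of 19794 8 false calls were made, and 66% of changes of 2-fold and 99% of those of 4-fold were found. The changed genes all had a mean of at least 2 CPM and were split evenly between increases and decreases. In the data 64.5% of genes passed, so these figures describe a case with far fewer changes. Tables were made with Python 3.11.15, pandas 2.3.3, numpy 2.4.6 and scipy 1.17.1.

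Genes were named by rule: the 12 largest increases and decreases with a mean log2 CPM of at least 1, up to 4 members per list with the smallest p, and the 8 most abundant, most gained and most lost. PDF1, CER6, MYB51, MYB122, CYP71A12, CYP71A13, NAC017, NAC078 and SOG1 were chosen after their values were seen. RefSeq TAIR10.1 matched 32547 loci and gave promoters, lengths and locus types. Same-numbered dark and high-dose libraries had correlated deviations of 0.053, 0.078 and -0.021, so the numbers do not pair them. Low-count list members were not analysed here.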

Additional observations from a re-analysis of the deposited data

Results flagged for a closer look

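Of the largest changes, 4 differed between WT and uvr8-6 by a test of the difference in edgeR's quasi-likelihood fit. The uncharacterized gene AT5G24640 had a log2 fold change of 12.41 in WT and 6.64 in uvr8-6, a difference of -5.77 (adjusted p = 0.021). The immune regulator gene CBP60G had 12.14 and 7.12, a difference of -5.02 (adjusted p = 0.025). Both had 0 counts in the WT dark libraries, so these fitted values depend on edgeR's default prior count. The glycine-rich protein gene AT4G18280 fell by 7.05 in WT and by 2.50 in uvr8-6, a difference of 4.54 (adjusted p = 0.040). The SAUR gene AT2G21210 fell by 5.59 and by 2.29, a difference of 3.30 (adjusted p = 0.011). All 4 passed in the same direction in both genotypes. The later sequencing run of the uvr8-6 libraries cannot be told apart from genotype.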

How the results depend on the processing

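The number of genes passing between high dose and dark was 12771 and stayed within 1.5 times of that in every alternative run, at 12755 with DESeq2, 12959 with a replicate block over all groups and 10988 with a replicate block in the compared groups alone. The majority of higher calls (6541 against 6230) turned in the compared groups alone (5393 against 5928) and with the block there (5341 against 5647). Leaving out 1 library at a time gave 11469 to 13093 genes, 3061 to 3998 at least 2-fold higher and 2884 to 3277 at least 2-fold lower. The same gave 7813 to 9540 genes between the doses, 177 to 2320 for xpf-3 against WT and 827 to 2393 for uvr8-6 against WT. In the compared groups alone these last counts were 612 and 594, and with the replicate block there 824 and 913, from fewer samples. The split of the uvr8-6 count (887 higher, 738 lower) turned with DESeq2 size factors (645 and 866) and without the filter (391 and 889). With 1 library left out the median of the TCP factors ran from -0.057 (without WT dark replicate 3) to 0.33 and that of the shoot apex and stomata genes from -0.024 (without WT high replicate 3) to 1.975, and the cause was not tested. Of the values for single named genes 3339 kept their direction and side of the threshold, 14 lost the call (UVH1, POK1, CDKB1;2, LACS6 and ERCC1) and 1 gained it (ICL). Genes near 0 counts in 1 group are limited by depth.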
